A study of Mus musculus with 6 samples.

Results

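The genes of the pyruvate dehydrogenase (PDH) complex and of the enzymes that switch it on and off were examined in mouse skeletal muscle lacking Dock3, a gene studied for its role in the fusion of muscle precursor cells. Membership was by gene name, and the genes were chosen with earlier results of these data known. They were 4 PDH kinases (Pdk1, Pdk2, Pdk3 and Pdk4), 2 PDH phosphatases (Pdp1 and Pdp2) and 4 subunits of the complex (Pdha1, Pdhb, Dlat and Pdhx). These are 10 of the 54393 genes in the deposited table. RNA came from the tibialis anterior, a fast muscle at the front of the lower leg, of adult mice. There were 3 muscles of wild-type (WT) mice, titled C57 and numbered 1, 3 and 4, and 3 muscles of Dock3 knockout (Dock3 KO) mice, numbered 1, 2 and 3. No treatment, sex or exact age was named for either group, nor how the Dock3 allele was made and whether each muscle came from a separate animal, so p-values measure the spread between these muscles.

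The PDH complex sits in the mitochondrial matrix and turns pyruvate, the end product of glycolysis, into acetyl-CoA, which commits carbon from carbohydrate to oxidation. The kinases phosphorylate the alpha subunit of the first enzyme of the complex and stop it, and the phosphatases remove that phosphate and restart it. In skeletal muscle Pdk4 is known to be induced by fasting, fatty acids and glucocorticoids, through factors that include PPAR receptors and FoxO proteins, and it is then associated with a switch of fuel from glucose to fat.

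Values are the authors' normalized counts, which sum to between 23520223 and 33393950 per sample. A rough estimate of reads, from the most frequent low value of each sample, was 21654452 to 32457438. Dock3, an activator of the small GTPase Rac, was at 169, 161 and 118 normalized counts in the WT muscles, against 22.4, 1.78 and 1.54 in knockout muscles 1, 2 and 3 (log2 difference -4.76, SE 0.75, limma adjusted p = 0.0140, with 0.000282 to 0.123 over 19 alternative settings). All 11 markers of muscle fibres were detected, with sums of 1576501 to 1710054 in WT and 1515805 to 1795318 in Dock3 KO. Dock3 KO replicates 1 and 2 stood apart: 17.9% and 20.3% of their summed values came from 2 genes, Gm42418 and Lars2, against 3.64% in Dock3 KO replicate 3 and 3.00% to 3.51% in WT. The log2 differences of Pdk4 and Plin5 are therefore also given without those 2 libraries, which leaves only Dock3 KO replicate 3 in its group.

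Of the 10 PDH genes, Pdk4 rose in Dock3 KO muscle and none fell past the threshold, which was a limma adjusted p of 0.05 over the 16031 genes whose mean reached 10 normalized counts. All 10 genes passed that filter. Over all genes tested, 1.03% passed the threshold, 0.443% higher and 0.586% lower in Dock3 KO. An unadjusted p under 0.05 was reached by 2 of the 10, Pdk4 and Pdp1, against 10.5% of all genes. The 3 Dock3 KO values lay outside the WT range on one side for the same 2 genes, Pdk4 above it and Pdp1 below it, against 16.2% of all genes (7.6% above and 8.65% below). The median log2 difference of the 10 genes was -0.13, beside -0.01 over all genes tested, and 4 of the 10 were above 0, beside 49.0% of all genes. In bulk muscle RNA, fewer cells of a type and less RNA per cell cannot be told apart.

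**Figure D1:**
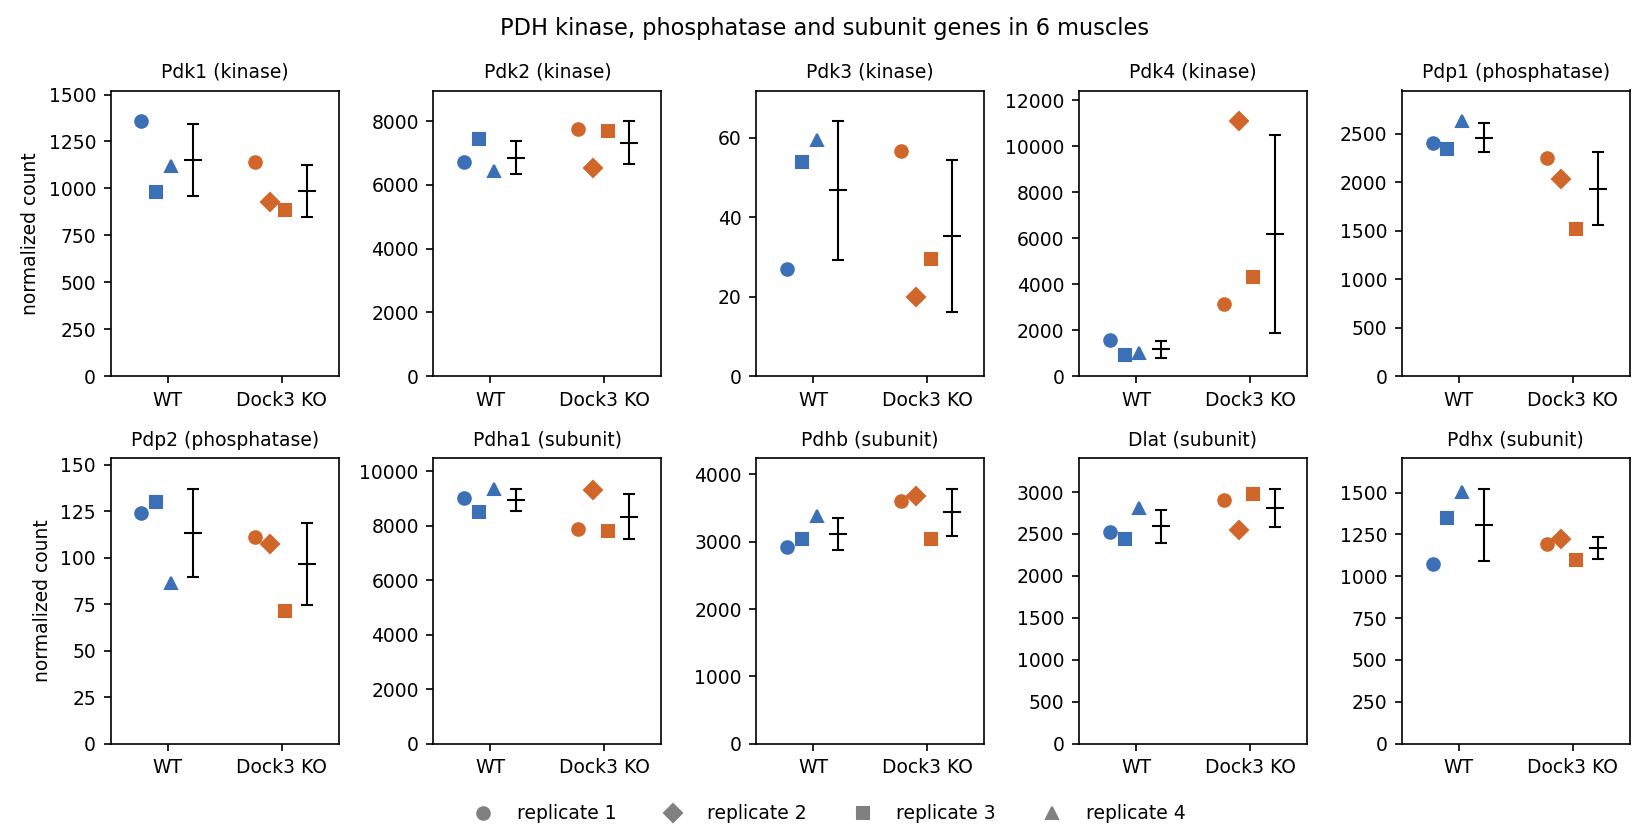
Normalized counts of the 10 PDH genes (vertical axes from 0, a separate scale for each gene) in the 3 WT (blue) and 3 Dock3 KO (orange) muscles. Marker shape gives the replicate number, and bars give the mean ± SD of each group. Pdk4 was between 3125 and 11092 in Dock3 KO and at most 1581 in WT, while 8 of the other 9 genes had overlapping groups.

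Pdk4, the kinase that responds most to nutritional state in muscle, was at 1581, 908 and 999.6 normalized counts in WT muscles 1, 3 and 4. Knockout muscles 1, 2 and 3 gave 3125, 11092 and 4307. Every Dock3 KO muscle was above every WT muscle, and Dock3 KO replicate 2 was far above the other two. The Dock3 KO values were 2.69, 9.54 and 3.70 times the WT mean of 1163 ± 365 (SD, n = 3), and their mean of 6175 ± 4299 (SD, n = 3) was 5.31 times it, or 3.20 times without Dock3 KO replicate 2. The log2 difference, on the scale of log2(normalized count + 1), was 2.23 (SE 0.40, 95% interval 1.34 to 3.12, limma adjusted p = 0.0301). By p-value Pdk4 was number 126 of the 16031 genes tested.

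The direction of the Pdk4 difference held under each of 19 alternative settings, with log2 differences of 1.61 to 2.61, but the call was lost under 7 of them, with limma adjusted p between 0.00206 and 0.526. It was lost without WT replicate 3 (adjusted p = 0.126), without WT replicate 4 (adjusted p = 0.110) or without Dock3 KO replicate 3 (adjusted p = 0.0651). Without both libraries high in Gm42418 and Lars2, which left only Dock3 KO replicate 3 in its group, the log2 difference was 1.93. Dock3 KO replicate 3, whose share of Gm42418 and Lars2 was close to that of WT, had 4307 normalized counts of Pdk4, above every WT muscle. Without Dock3 KO replicate 2, the highest sample, the log2 difference was 1.70 (adjusted p = 0.0205).

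Some marker sums moved in part with Pdk4. The summed level of 8 slow-fibre markers was 1827 to 2102 normalized counts in WT and 1572, 2711 and 2441 in Dock3 KO replicates 1, 2 and 3. Most of that sum came from Atp2a2 and Tpm3, with means of 730 and 782 in WT and 936 and 762 in Dock3 KO. None of the 8 passed the threshold, and the sum in Dock3 KO replicate 1 was below that of every WT muscle. These markers did not move together: Myh7, Myl3 and Atp2a2 had log2 differences of 0.83, 0.49 and 0.33. Tnnt1, Tnni1, Tnnc1, Myl2 and Tpm3 had log2 differences of -0.15, -0.02, -0.31, -0.06 and -0.03. Fibroblast markers summed to 27466 to 29000 normalized counts in WT and 30381 to 36416 in Dock3 KO. Divided by each sample's total, these sums overlap between the groups, also with Gm42418 and Lars2 left out of the total. Of the 5 markers 2, the collagens Col1a1 and Col3a1, rose. The list did not move as a whole: Dcn and Lum, which encode proteoglycans, had log2 differences of -0.28 and -0.48 and did not pass (limma adjusted p = 0.654 and 0.545). The sum in normalized counts was highest in Dock3 KO replicate 1, at 36416, where Pdk4 was lowest among the knockouts. The sum of the adipocyte markers (7 genes) overlapped between the groups, at 2156 to 3569 in WT and 2575 to 3477 in Dock3 KO. Fabp4 supplied most of this sum, averaging 2496 normalized counts over the WT muscles and 2353 over the knockouts. Each of the 7 genes also overlapped, and none passed. Lep and Retn, both low, had log2 differences of 2.26 and 1.81 (limma adjusted p = 0.324 and 0.419). Those of Plin1, Cidec and Adipoq were 0.70, 0.41 and 0.19, and those of Cfd and Fabp4 -0.11 and -0.04. No defining marker of these 3 lists was at 0 in all samples, and their part in the Pdk4 difference was not tested.

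**Figure D2:**
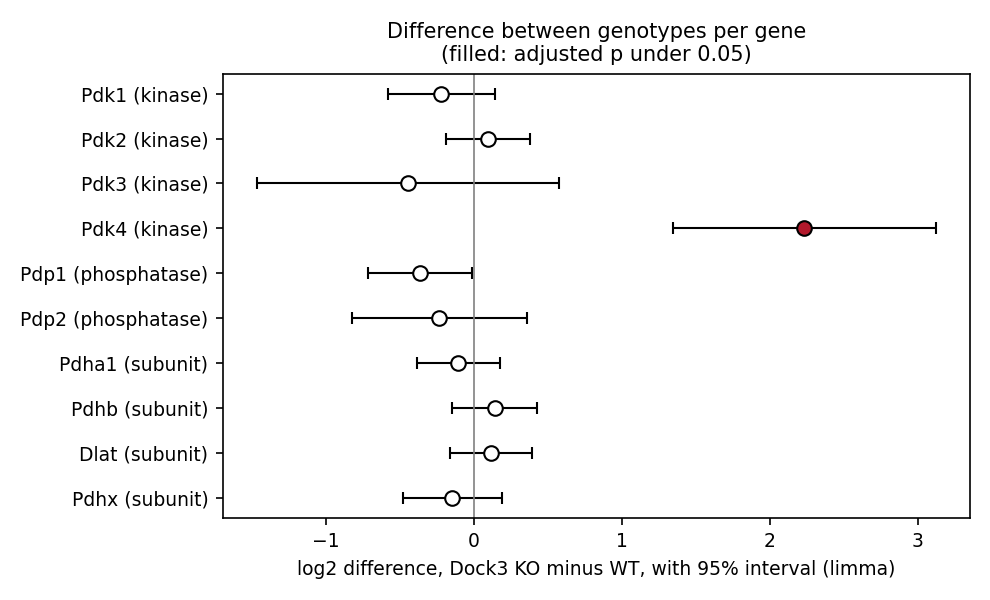
Log2 difference of each PDH gene between Dock3 KO and WT (horizontal axis, limma, 3 muscles per group) with its 95% interval. The filled point is the gene past the adjusted threshold, Pdk4 at 2.23. The intervals of 8 of the other 9 genes include 0, and that of Pdp1 ends just below 0.

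The promoters of the kinase that rose and of the most abundant kinase are shown: Pdk4 is the only PDH gene past the threshold, and Pdk2 had the highest level of the 4 kinases in WT. The Pdk4 gene (ENSMUSG00000019577) lies at chr6:5483351-5496309 on the minus strand and Pdk2 (ENSMUSG00000038967) at chr11:95026258-95041354 on the minus strand (GRCm38, GENCODE M21). The 250 bases before each start were taken from RefSeq (GRCm38.p6), at chr6:5496279-5496528 and chr11:95041372-95041621, both minus strand. They are written 5′ to 3′ along the gene, and capitals mark matches to the motifs named in the next paragraph. The starts used differ from the GENCODE gene ends. The Pdk4 stretch reaches into the GENCODE gene, whose 5′ end is at 5496309, and the Pdk2 stretch lies wholly beyond the GENCODE 5′ end at 95041354. Motif positions count from the starts used.
Pdk4: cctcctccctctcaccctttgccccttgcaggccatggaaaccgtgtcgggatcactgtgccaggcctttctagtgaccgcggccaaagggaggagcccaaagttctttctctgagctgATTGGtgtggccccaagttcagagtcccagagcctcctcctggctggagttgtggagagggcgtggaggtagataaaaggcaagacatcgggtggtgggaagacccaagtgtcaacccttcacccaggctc
Pdk2: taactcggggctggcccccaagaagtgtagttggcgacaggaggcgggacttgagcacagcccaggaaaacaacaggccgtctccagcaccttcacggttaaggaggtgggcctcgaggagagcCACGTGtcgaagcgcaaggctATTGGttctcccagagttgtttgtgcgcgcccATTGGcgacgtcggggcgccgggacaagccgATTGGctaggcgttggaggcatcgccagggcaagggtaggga

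Motifs were searched on both strands in windows from 250 bases before to 50 bases after each start, which were at hand for 9 of the 10 genes (11 windows, since Pdk1 and Pdk2 have 2 each) and for 32851 starts in all. The letters searched were GTAAACA for a forkhead (FoxO) site, AGGTCA for a nuclear receptor half-site, AGAACA for a glucocorticoid receptor half-site, ACGTG for the hypoxia response core, CCAAT for the CCAAT box and GGGCGG for the GC box. The Pdk4 window held a single match, to CCAAT on the other strand, 131 bases before the start. It held none of the letters of the other 5 motifs, which says nothing of binding elsewhere or of other versions of a site. The Pdk2 window printed above held 3 CCAAT matches on the other strand, 105, 73 and 42 bases before the start, and 1 palindrome that matches ACGTG on both strands, as 2 overlapping matches. Of all windows, 37.4% held CCAAT, 19.6% ACGTG, 35.7% GGGCGG, 19.0% AGAACA, 16.3% AGGTCA and 3.65% GTAAACA. None of the 11 PDH windows held GTAAACA or AGGTCA, 1 held AGAACA, 4 ACGTG, 6 CCAAT and 6 GGGCGG. The windows of Pdk4 and Pdk2 held 12 and 25 CpG dinucleotides at 60.7% and 64.7% GC, beside medians of 7 and 52.7% over all windows.

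The other 3 kinases did not pass the threshold. Pdk2, the main kinase of this muscle by level, was at 6708, 7438 and 6419 normalized counts in WT muscles 1, 3 and 4, against 7747, 6542 and 7678 in knockout muscles 1, 2 and 3. The groups overlapped, with Dock3 KO replicate 2, the sample highest in Pdk4, the lowest Dock3 KO sample for Pdk2. The log2 difference was 0.09 (SE 0.13, 95% interval -0.19 to 0.38, limma adjusted p = 0.875). Its sign turned to -0.18 when samples were rescaled to the same total, which shifted the median of all genes to -0.28. Pdk2 overlaps Gm11513 on the other strand, and whether the authors' quantification used strand is not given in the sources used here.

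Pdk1 (chr2:71873224-71903858, plus strand), a kinase known as a target of the hypoxia-inducible factor, was at 1359, 979 and 1119 normalized counts in the WT muscles, against 1142, 927 and 887 in the knockouts. Those ranges overlapped, and the log2 difference was -0.22 (SE 0.16, 95% interval -0.58 to 0.14, limma adjusted p = 0.716). Pdk3 (chrX:93764607-93832201, minus strand), a kinase better known from testis and brain, was low, at 26.9, 53.8 and 59.5 normalized counts in the WT muscles, against 56.7, 19.9 and 29.4 in the knockouts. The groups overlapped, and the 95% interval of -1.47 to 0.57 around a log2 difference of -0.45 (SE 0.46, limma adjusted p = 0.816) was the widest among the genes that did not pass.

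Divided by the length of the longest annotated transcript, the 4 kinases together came to 3715, 3787 and 3389 normalized counts per kilobase in WT replicates 1, 3 and 4 and to 4593, 6285 and 4840 in Dock3 KO replicates 1, 2 and 3. Without Pdk4 the sums were 3261, 3526 and 3102 in WT and 3696, 3101 and 3603 in Dock3 KO. In these normalized counts the kinase sum was thus higher in every Dock3 KO muscle with Pdk4 counted and overlapped without it. That gap depends on how samples are scaled. Normalized counts summed to 33393950 in Dock3 KO replicate 1, against 23520223 to 26507063 in WT. Divided by those totals, the kinase sum of Dock3 KO replicate 1 falls inside the WT range. Pdk4 made up 12.2%, 6.88% and 8.47% of the kinase sum in WT (9.19% ± 2.74, SD, n = 3), against 19.5%, 50.7% and 25.5% in the knockouts (31.9% ± 16.5, SD, n = 3). In Dock3 KO replicate 2 its level per kilobase was 1.09 times that of Pdk2, whereas in the other 5 muscles it was between 0.079 and 0.362 times. The share of Pdk2 was 84.1% ± 3.54 in WT muscle, against 64.0% ± 15.5 in the knockouts (SD, n = 3 each). These shares and ratios follow from the Pdk4 values and were not tested, and with 3 against 3 samples a two-sided exact permutation test cannot go below p = 0.1.

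**Figure D3:**
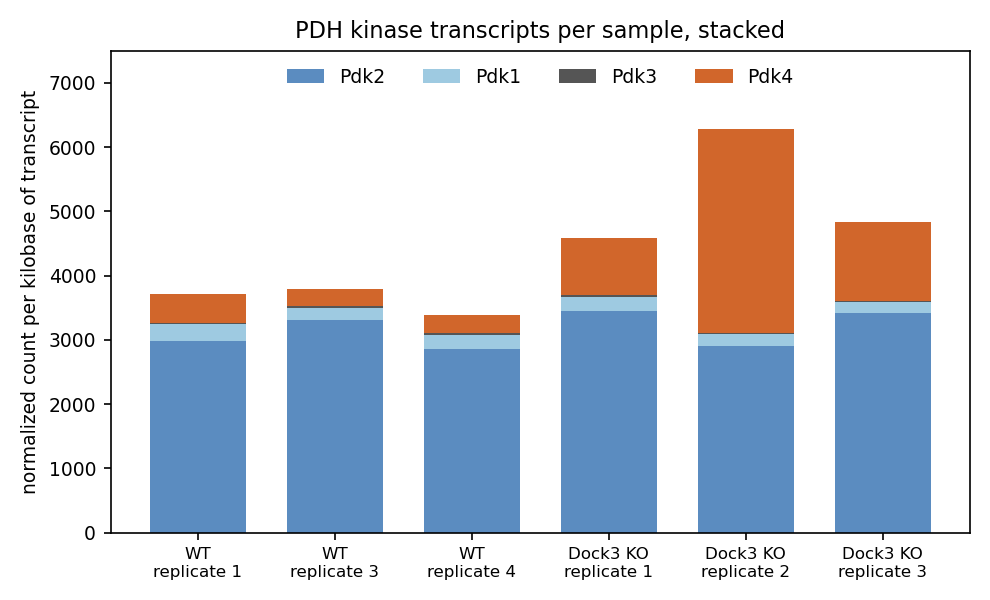
Stacked bars of the 4 PDH kinase genes in each muscle, in normalized counts per kilobase of the longest annotated transcript (vertical axis from 0). The bars reach 3389 to 3787 in WT and 4593 to 6285 in Dock3 KO, and the orange Pdk4 segment is larger in each Dock3 KO muscle than in any WT muscle, while Pdk3 is hardly visible.

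Neither phosphatase passed the threshold. Pdp1 (chr4:11958184-11966452, minus strand), the calcium-stimulated phosphatase that predominates in muscle, was at 2406, 2340 and 2629 normalized counts in WT muscles 1, 3 and 4, against 2247, 2029 and 1516 in knockout muscles 1, 2 and 3. Every Dock3 KO value was below every WT value, by little in replicate 1. The means were 2458 ± 151 and 1931 ± 375 (SD, n = 3 each), and the log2 difference was -0.37 (SE 0.16, 95% interval -0.72 to -0.02, limma unadjusted p = 0.0425, adjusted p = 0.449). Over the 19 alternatives its adjusted p was between 0.0901 and 0.817, and its direction did not turn in any of them. Pdp2 (chr8:104591451-104599026, plus strand), the isoform not stimulated by calcium, was at 124, 130 and 86.3 in the WT muscles, against 111, 107 and 71.3 in the knockouts. The groups overlapped, and WT replicate 4 and Dock3 KO replicate 3 were the lowest of their groups (log2 difference -0.24, SE 0.26, 95% interval -0.83 to 0.36, limma adjusted p = 0.838).

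Per kilobase, the summed kinases were 6.25, 6.53 and 5.29 times the summed phosphatases in the WT muscles and 8.29, 12.5 and 13.0 times in the Dock3 KO muscles. The groups of this ratio did not overlap, with 6.02 ± 0.65 for WT muscle, against 11.3 ± 2.58 for the knockouts (SD, n = 3 each). That gap follows from its parts. In the authors' normalized counts the kinase sum was higher in every Dock3 KO muscle and the phosphatase sum lower. Unlike those sums, the ratio does not depend on how samples are scaled. The phosphatase sum was 580 to 641 normalized counts per kilobase in WT and 374 to 554 in Dock3 KO. The ratio was not tested. In Dock3 KO replicate 2 the ratio came with the highest Pdk4, and in replicate 3 with the lowest Pdp1. The ratio is of RNA levels and says nothing of enzyme activity or of the phosphorylation of the complex, neither of which was measured.

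The 4 subunit genes did not pass the threshold, and their groups overlapped in every case. Pdha1 (chrX:160122209-160138413, minus strand) encodes the alpha subunit of the first enzyme, E1, which carries the phosphorylation sites. It was at 8997, 8509 and 9330 normalized counts in the WT muscles, against 7881, 9294 and 7814 in the knockouts, with Dock3 KO replicates 1 and 3 below the WT range and replicate 2 inside it (log2 difference -0.11, SE 0.13, 95% interval -0.39 to 0.17, limma adjusted p = 0.853). Pdha1 overlaps Map3k15 on the other strand. Pdhb (chr14:8165996-8173025, minus strand), the beta subunit of E1, was at 2918, 3038 and 3385 in the WT muscles, against 3602, 3677 and 3034 in the knockouts, with replicates 1 and 2 above the WT range (log2 difference 0.14, SE 0.13, 95% interval -0.15 to 0.43, limma adjusted p = 0.780).

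Dlat (chr9:50634633-50659780, minus strand), the E2 core enzyme that passes the acetyl group to coenzyme A, was at 2521, 2441 and 2814 normalized counts in the WT muscles, against 2905, 2546 and 2978 in the knockouts (log2 difference 0.12, SE 0.12, 95% interval -0.16 to 0.39, limma adjusted p = 0.829). Pdhx (chr2:103021075-103073513, minus strand), which binds the third enzyme of the complex to the core, was at 1072, 1346 and 1501 in the WT muscles, against 1193, 1221 and 1095 in the knockouts (log2 difference -0.15, SE 0.15, 95% interval -0.48 to 0.19, limma adjusted p = 0.813). All 3 Dock3 KO values of Pdhx lay inside the WT range. The sign for Pdhb and Dlat turned when samples were rescaled to the same total, to -0.14 and -0.16, so no direction is given for either. That rescaling shifted the median of all genes to -0.28. With Gm42418 and Lars2 left out of the total, the log2 differences were 0.037 for Pdhb and 0.012 for Dlat. Of the 9 PDH genes that did not pass, 8 had a 95% interval that stayed within 1 log2 unit of 0, the exception being Pdk3. The 10 genes had no near-identical copy elsewhere in the transcript set (at least 95% identity over 50% of the shorter sequence).

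Within the complex, the ratio of Pdhb to Pdha1 per kilobase was 0.389, 0.428 and 0.435 in the WT muscles and 0.548, 0.474 and 0.465 in the Dock3 KO muscles, which did not overlap. This ratio does not depend on how samples are scaled, but it was chosen after its values were seen and was not tested. The ratio of Dlat to Pdha1 was 0.198, 0.202 and 0.213 in WT and 0.260, 0.193 and 0.269 in Dock3 KO. The ratio of Pdhx to Pdha1 was 0.135, 0.180 and 0.183 in WT and 0.172, 0.149 and 0.159 in Dock3 KO. Both of these overlapped between the groups.

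In level per kilobase, the order in WT muscle was Pdha1 (3141), Pdk2 (3052), Pdhb (1310), Dlat (642), Pdp1 (585), Pdhx (521), Pdk4 (334), Pdk1 (222), Pdk3 (22.1) and Pdp2 (19.9), as mean normalized counts per kilobase of 3 muscles. Neighbours in that order overlapped in their ranges except Pdk2 above Pdhb, Pdhb above Dlat and Pdk1 above Pdk3. In Dock3 KO muscle Pdk4, at 1772 ± 1234 (SD, n = 3), came next after Pdk2 (3260) and Pdha1 (2925), and its range overlapped both neighbours. The next were Pdhb (1446), Dlat (696), Pdhx (467), Pdp1 (460), Pdk1 (190), Pdp2 (17.0) and Pdk3 (16.7). Among all genes tested, ordered by mean level per kilobase, Pdk4 was number 2253 in WT and number 489 in Dock3 KO, whereas Pdk2 was number 294 and number 292. That position rests in part on Dock3 KO replicate 2: without it the Pdk4 mean was 1067 normalized counts per kilobase, below Pdhb (1396), and its number was 767.

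The 5 genes whose log2 values followed Pdk4 most closely over the 6 muscles were Hist2h2be, a histone H2B gene (Pearson r = 0.997), Ccdc50 (0.992), Gpt2, a mitochondrial alanine aminotransferase that interconverts pyruvate and alanine (0.990), Aoc2 (0.990) and Fem1c (0.990). These correlations are a description over 6 muscles of 2 genotypes that share 1 highest sample, Dock3 KO replicate 2. None of the 5 passed the threshold themselves. Ccdc50 was at 3257, 2911 and 2718 normalized counts in the WT muscles, against 3922, 5425 and 4095 in the knockouts (log2 difference 0.59, SE 0.15, limma adjusted p = 0.149). Its Dock3 KO values were all above WT but spread over a far narrower range than those of Pdk4.

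Around the complex, 95 genes in 8 lists, also chosen with earlier results known, were looked at. Of these, 94 were tested and 1, Plin5, passed the threshold. Of 11 partners and cofactor enzymes of the complex, 10 were tested and none passed, with a median log2 difference of 0.07, and Pdha2 was listed at 0 in all 6 muscles. The 3 with the lowest p were Mpc2 and Mpc1, the subunits of the mitochondrial pyruvate carrier, and Pdpr, the regulatory subunit of the phosphatase, with log2 differences of 0.39, 0.27 and 0.37 (limma adjusted p = 0.353, 0.520 and 0.618). Mpc2 was at 2921, 3191 and 2955 normalized counts in the WT muscles, against 4692, 3309 and 3976 in the knockouts. Both carrier genes were above the WT range in each Dock3 KO muscle, by little in replicate 2 for Mpc2 and in replicate 3 for Mpc1, beside 7.6% of all genes. When samples were rescaled to the same total, which shifted the median of all genes to -0.28, neither kept that gap, beside 1.77% of all genes above the WT range. The log2 differences were then 0.11 for Mpc2 and -0.00075 for Mpc1. Neither kept the gap when Gm42418 and Lars2 were left out of that total, beside 4.06% of all genes above the WT range.

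Of 7 genes for other routes of pyruvate, none passed (median 0.10). Gpt2 was at 3940, 3409 and 3122 normalized counts in the WT muscles, against 4985, 8339 and 6252 in the knockouts. The groups did not overlap, and the order of the Dock3 KO muscles was that of Pdk4 (log2 difference 0.88, SE 0.19, limma adjusted p = 0.0710). Gpt2 passed with no filter on low values (adjusted p = 0.0295), with a robust prior variance (adjusted p = 0.0497) and without Dock3 KO replicate 1 (adjusted p = 0.0242). Pcx, which carboxylates pyruvate to oxaloacetate, had a log2 difference of -0.35 (limma adjusted p = 0.449), and Ldhb, a lactate dehydrogenase subunit, one of 0.33 (adjusted p = 0.530). Of 8 genes of related ketoacid dehydrogenases none passed (median 0.13). Ogdh and Ogdhl, the first enzyme of the oxoglutarate dehydrogenase complex and its relative, had log2 differences of 0.32 and 1.26. Their limma adjusted p was 0.457 and 0.492. Ogdhl was low, at 22.8, 6.10 and 5.72 normalized counts in the WT muscles, against 25.0, 20.9 and 26.3 in the knockouts. Its groups overlapped, and the SE of its log2 difference was 0.58. Bckdhb, of the branched-chain complex, had a log2 difference of -0.27 (limma adjusted p = 0.629).

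Of 20 genes known as targets of PPAR receptors, which respond to fatty acids, 1 passed the threshold and 12 had Dock3 KO values above the WT range in all 3 muscles, beside 7.6% of all genes. None had values below it. The median log2 difference of the list was 0.35 and 17 of the 20 were above 0. When samples were rescaled to the same total, which shifted the median of all genes to -0.28, the list's median was 0.08, 4 of the 20 had Dock3 KO values above the WT range and 2 below it (beside 1.77% and 20.8% of all genes), and Plin5 no longer passed (adjusted p = 0.0899). With Gm42418 and Lars2 left out of that total, the list's median was 0.25, beside -0.11 over all genes. Then 8 of the 20 were above the WT range and 0 below it, beside 4.06% and 13.0% of all genes. Plin5 passed in that setting (limma adjusted p = 0.0180). Plin5, a coat protein of lipid droplets, was at 125, 111 and 116 normalized counts in the WT muscles, against 277, 262 and 287 in the knockouts. The values were close together within each genotype, unlike those of Pdk4 (log2 difference 1.22, SE 0.17, limma adjusted p = 0.00662). Without both libraries high in Gm42418 and Lars2, which left only Dock3 KO replicate 3 in its group, the Plin5 log2 difference was 1.28.

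Ucp3, a mitochondrial carrier of the uncoupling protein family, was at 552, 333 and 478 normalized counts in the WT muscles, against 809, 2942 and 1378 in the knockouts. It had the same order of Dock3 KO muscles as Pdk4 and did not pass (log2 difference 1.74, SE 0.39, limma adjusted p = 0.0892), except with no filter on low values (adjusted p = 0.0172) and without Dock3 KO replicate 1 (log2 difference 2.18, adjusted p = 0.0169). Acadl, the long-chain acyl-CoA dehydrogenase of fat oxidation, was at 1936, 1824 and 2260 in the WT muscles, against 2607, 3014 and 2923 in the knockouts (log2 difference 0.51, SE 0.13, limma adjusted p = 0.147).

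**Figure D4:**
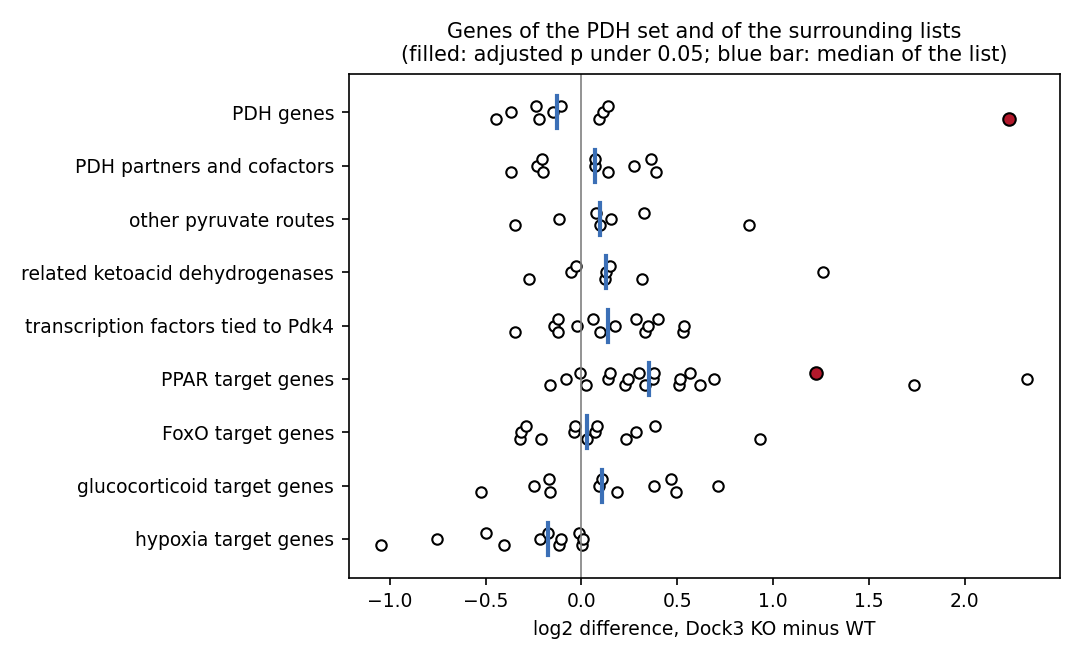
Log2 differences between Dock3 KO and WT (horizontal axis) of the 10 PDH genes and of the tested genes of 8 surrounding lists, each point a gene, with the list's median as a blue bar. Pdk4 and Plin5 are the 2 filled points, past the adjusted threshold. The median of the PPAR targets is 0.35 and that of the hypoxia targets -0.18.

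None of the 14 genes for transcription factors tied to Pdk4 passed (median 0.14), and 1 of them had Dock3 KO values above the WT range in all 3 muscles, beside 7.6% of all genes, and none when samples were rescaled to the same total. That gene was Nr3c1, the glucocorticoid receptor, at 2736, 2593 and 2788 normalized counts in the WT muscles, against 3043, 4209 and 2794 in the knockouts (log2 difference 0.29, SE 0.16, limma adjusted p = 0.604), with replicate 3 barely above the WT range. Cebpb and Esrra had log2 differences of 0.53 and 0.35 (limma adjusted p = 0.557 and 0.597). None of 13 FoxO targets passed (median 0.03), the lowest p being those of Cited2 (log2 difference 0.93), Eif4ebp1 (-0.32) and Fbxo21 (0.38), with limma adjusted p = 0.274, 0.442 and 0.467. None of 11 glucocorticoid targets passed (median 0.11): the kinase gene Sgk1 had a log2 difference of -0.52, Errfi1 one of 0.49 and Tsc22d3 one of 0.47 (limma adjusted p = 0.194, 0.430 and 0.442). None of 11 hypoxia targets passed, with 2 of the 11 above 0 and a median of -0.18, beside -0.01 for all genes. Egln3, Ankrd37 and the glucose transporter gene Slc2a1 had log2 differences of -0.50, -0.75 and -0.40 (limma adjusted p = 0.442, 0.562 and 0.584).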

How the data were processed

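Ribosomal-RNA-depleted total RNA was sequenced from stranded paired-end libraries, per the labels' protocols. The authors deposited 1 table of normalized counts, treated here as a signal per gene because its values are not whole numbers. The submitters' processing notes name FastQC, Trim Galore 0.4.5, Salmon 0.12.0, DESeq2 1.22.1 and R 3.5.3 with the builds mm10 and GRCm38, without roles. Between 15.2% and 25.8% of a sample's low values were whole multiples (tolerance 0.01) of its most frequent low value, so reads were not recovered and no count test was run. Dividing sums by that value gave a rough estimate of reads, since what the value stands for was not established.

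All 54393 identifiers were named from GENCODE M21. Values were converted to log2(value + 1), which understates changes of low genes. The genotypes were compared with limma 3.58.1 in R 4.3.3 (eBayes with trend) over genes with a mean of at least 10, without covariates, with Benjamini-Hochberg adjustment and a threshold of 0.05. The code was tested on simulated data.

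Genes named were the 10 PDH genes, Dock3, list genes past the threshold, the 3 genes of each list with the lowest p, and the 5 genes most like Pdk4 by Pearson r. The members and lists were chosen with earlier results of these data known. Copies were searched with blastn 2.17.0, keeping hits of at least 100 bases. The 16 alternatives planned changed the pseudocount, filter, scaling, prior variance, replicate block and samples, and 3 were added after seeing the data, as were the exon union length and the samples left out for levels per kilobase and the Pdk4 fold of means.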

Additional observations from a re-analysis of the deposited data

How the results depend on the processing

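The number of genes past the threshold was 165 in the reported fit. It was 104 with a prior variance without trend, 57 with log2 Gm42418 as a covariate, 56 without both Dock3 KO libraries high in Gm42418 and Lars2, and 100 to 159 when 1 muscle was left out in turn. Rescaling to the same total gave 180, of which 41 were higher and 139 lower, against 71 and 94. It shifted the median log2 difference of all genes to -0.28, beside -0.11 with Gm42418 and Lars2 left out of the total. The number of PDH genes past the threshold was 1. It was 0 with a prior variance without trend, a robust prior variance and the Gm42418 covariate, and 0 to 1 when 1 muscle was left out.

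The log2 difference of Pdk4 was 2.23 with a prior variance without trend (adjusted p = 0.210) and with a robust one (adjusted p = 0.212). It was 1.81 with the covariate (adjusted p = 0.526) and 1.70 to 2.61 when 1 muscle was left out. Without both Dock3 KO libraries high in Gm42418 and Lars2, which left only Dock3 KO replicate 3 in its group, it was 1.93. The covariate and the smaller fits have fewer residual degrees of freedom, and otherwise the cause was not tested. No other PDH gene passed in any alternative. Signs turned for Pdk2 with the same total (-0.18, and -0.0094 with Gm42418 and Lars2 left out of the total), for Pdk3 with the replicate block (0.098), for Pdhb with the same total (-0.14), the covariate (-0.051) and without both libraries (-0.034), for Dlat and Mpc1 with the same total (-0.16 and -0.00075), and for Slc2a1 with the covariate (0.074) and without both libraries (0.00064). Over the exon union length, Pdk4 was 12.4% of the kinases in WT and 38.9% in Dock3 KO. A minimum mean of 50 leaves out Pdk3.

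Replicate numbers 1 and 3 occur in both genotypes, but deviations of same-numbered muscles from their group means had correlations of only 0.065 and 0.0066. Adding the replicate block left 127 genes past the threshold, 100 of which were shared with the reported fit, and the log2 difference of Pdk4 was 1.61 (adjusted p = 0.0137), on 1 residual degree of freedom. Plin5 no longer passed with that block (adjusted p = 0.0895) or with the covariate (adjusted p = 0.164). Genes at the level of Pdk3 and Pdp2 are the ones whose precision depth limits most.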

Other observations

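Pdk4 was highest in Dock3 KO replicate 2 and lowest in Dock3 KO replicate 1, and all lists were looked at for that order after the Pdk4 values had been seen. It was found in 18.4% of all genes tested. Among the marker lists it was found in 5 of the 8 slow-fibre markers (Myh7, Tnni1, Myl2, Myl3 and Atp2a2) and in 0 of the 47 tested genes of the other 7 lists. Among the lists around the complex it was found in 6 of the 11 glucocorticoid targets (Fkbp5, Tsc22d3, Per1, Klf9, Mt2 and Ddit4), 3 of the 7 genes for other pyruvate routes, 3 of the 8 for related ketoacid dehydrogenases, 5 of the 20 PPAR targets, 3 of the 13 FoxO targets, 3 of the 14 transcription factor genes, 2 of the 11 hypoxia targets and 1 of the 10 partners and cofactor enzymes. Fkbp5, a chaperone of the glucocorticoid receptor, was at 476, 516 and 612 normalized counts in the WT muscles, against 409, 1150 and 701 in knockout muscles 1, 2 and 3. Ddit4, an inhibitor of mTOR signalling, was at 226, 242 and 276 in the WT muscles, against 214, 897 and 345 in the knockouts. In both genes replicate 2 was above every WT muscle and replicate 1 below every one, so that the genotypes overlapped although the Dock3 KO muscles were far apart. Tsc22d3 was at 4771, 4744 and 5530 in the WT muscles, against 5307, 9577 and 6532 in the knockouts. Replicate 2 also had the highest share of Gm42418 and Lars2 (20.3%) and the lowest rough estimate of reads of the 6 samples (21654452). The part of these measures in the order was not tested.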
